A study of Homo sapiens with 4 samples.

Results

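The lysyl oxidase family was followed through embryoid bodies given TBBD or its vehicle. The family comprised all 5 of its genes, LOX, LOXL1, LOXL2, LOXL3 and LOXL4, out of 18640 genes measured. They were found as every probeset (a small group of array probes within an exon) whose only gene symbol in the platform annotation was one of these names, which gave 64 probesets. LOX and LOXL1 had 7 each, LOXL2 had 18, and LOXL3 and LOXL4 had 16 each. A further 4 probesets named for LOXL3 and its neighbour HTRA2 together were left out. The family was selected on measured values, namely its TBBD minus DMSO differences, so that contrast is described here and not tested.

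Embryoid bodies are aggregates in which human embryonic stem cells start to differentiate. They were grown from a single cell line, BG01V, an embryonic line whose karyotype is variant, and were moved in serum-containing medium onto gelatin. DMSO replicate 1 and DMSO replicate 2 received DMSO as the control, and TBBD replicate 1 and TBBD replicate 2 received 10 µM TBBD for 48 h, in general placed between day 2 and day 4. TBBD, also known as ellagic acid, is named in the series title as a blocker of histone H3 arginine 17 methylation. Each of the 4 samples was hybridised to 1 Affymetrix Human Gene 1.0 ST array, and median log2 signals over probesets lay between 6.39 and 6.42. The labels do not say whether replicates came from separate cultures, so the spread between samples that a p-value here rests on may be technical. Of 8 pluripotency markers 7 were measured, and their mean log2 signal lay between 7.21 and 7.76 on the 4 arrays. Of 12 mesenchyme markers 11 were measured, with means between 7.77 and 8.61. Of these 2 marker lists, none of the measured genes lay at or below 5.40, the median level of 348 olfactory receptor genes, which are not expected in these cells. In such mixed samples a change in the number of cells of a type and a change in RNA per cell cannot be told apart.

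Lysyl oxidases are secreted copper enzymes that oxidise lysine and hydroxylysine side chains of collagens and elastin to aldehydes, which then condense into the covalent cross-links that stiffen matrix. Each member carries a conserved catalytic domain at its carboxyl end. LOX and LOXL1 are made with a propeptide that the procollagen proteinase BMP1 and its relatives remove, whereas LOXL2, LOXL3 and LOXL4 carry scavenger receptor cysteine-rich domains instead. Mesenchymal and vascular cells are the usual producers, and LOX is a well-known target of the hypoxia-inducible factors.

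LOX had the largest treatment difference of the 5 members. Its log2 signal, the mean over its probesets, was 6.18 (DMSO 1), 6.64 (DMSO 2), 7.06 (TBBD 1) and 7.10 (TBBD 2). Both TBBD arrays lay above both DMSO arrays, and the TBBD arrays lay much closer together than the DMSO arrays. Group means were 6.41 ± 0.33 (SD, n = 2) for the DMSO arrays and 7.08 ± 0.030 (SD, n = 2) for the TBBD arrays. The log2 difference was 0.67 ± 0.18 (SE), or 1.59-fold. Here and for the other treatment differences the SE is that of limma with group alone, not one from these SDs. Limma draws the spread of each gene toward that of all genes, and a shift between replicate numbers counts as spread. Within replicate 1, TBBD minus DMSO was 0.88 for LOX on the log2 scale, and within replicate 2 it was 0.46. Without DMSO 1, the lowest of the 4 arrays, the log2 difference was 0.44. Over all genes, 10.5% had both TBBD arrays above both DMSO arrays, and limma called 0% of 18640 genes at an adjusted p under 0.05 and 0.746% at an unadjusted p under 0.05. Among the 16819 genes with at least 3 probesets, LOX ranked 4 by its mean log2 difference, 9 by that of replicate 1 and 212 by that of replicate 2. These ranks describe a gene that was picked for its difference.

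**Figure D1:**
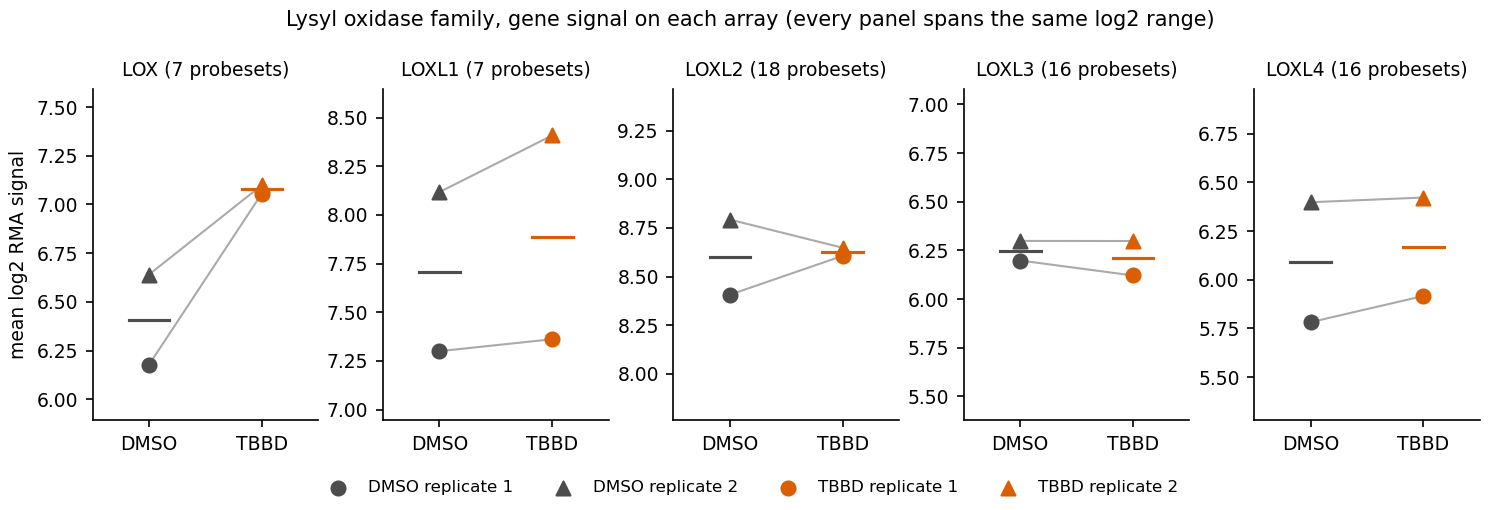
Mean log2 RMA signal of each family member (y axis, a different range but the same span in every panel) with DMSO and TBBD (x axis). Circles are replicate 1, triangles replicate 2, grey lines join arrays of the same number, and short bars are group means of 2 arrays. LOX is higher on both TBBD arrays (7.06 and 7.10) than on both DMSO arrays (6.18 and 6.64). The other 4 members have both replicate 2 arrays above both replicate 1 arrays, as do 25.1% of all genes, LOXL1 and LOXL4 by the most.

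The difference in LOX was spread over its whole set of probesets in replicate 1 and over most of them in replicate 2. All 7 probesets were higher on TBBD 1 than on DMSO 1, by between 0.49 and 1.35 on the log2 scale, and 6 of 7 were higher on TBBD 2 than on DMSO 2, with differences from -0.10 to 0.88, where 50.5% of all named probesets were higher in replicate 2 and 48.5% in replicate 1. Over all genes with at least 5 probesets, 1.41% had every probeset higher on TBBD 1 than on DMSO 1, and 0.136% had at least 6 in 7 probesets higher in both numbers. Both cutoffs follow the counts of LOX, a gene picked for its difference, so these shares are no test of it. The pooled genes also differ in their number of probesets, and such a rule is harder to meet with more. The probesets were numbered 1 to 7 in the order of the deposited table. Probeset 4 read 7.70 (DMSO 1), 7.61 (DMSO 2), 8.19 (TBBD 1) and 8.49 (TBBD 2). Probeset 1 read 6.50, 6.75, 7.30 and 7.48 in the same order. At each of these 2 both TBBD arrays lay above both DMSO arrays, as at 13.0% of all named probesets. Probeset 5 read 5.84, 6.90, 6.62 and 6.80, and probeset 7 read 5.76, 6.78, 6.94 and 6.80. At these 2 probesets DMSO 2 lay higher than DMSO 1 by 1.06 and 1.02, and TBBD 2 minus DMSO 2 came to only -0.10 and 0.017. Probeset 3 gave the largest value in replicate 1, 1.35, from 5.63 on DMSO 1 to 6.98 on TBBD 1, against 0.43 in replicate 2. Probesets 2 and 6 differed by 0.79 and 0.75 in replicate 1 and by 0.74 and 0.52 in replicate 2. Taking the median of its probesets, the LOX log2 difference was 0.57.

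**Figure D2:**
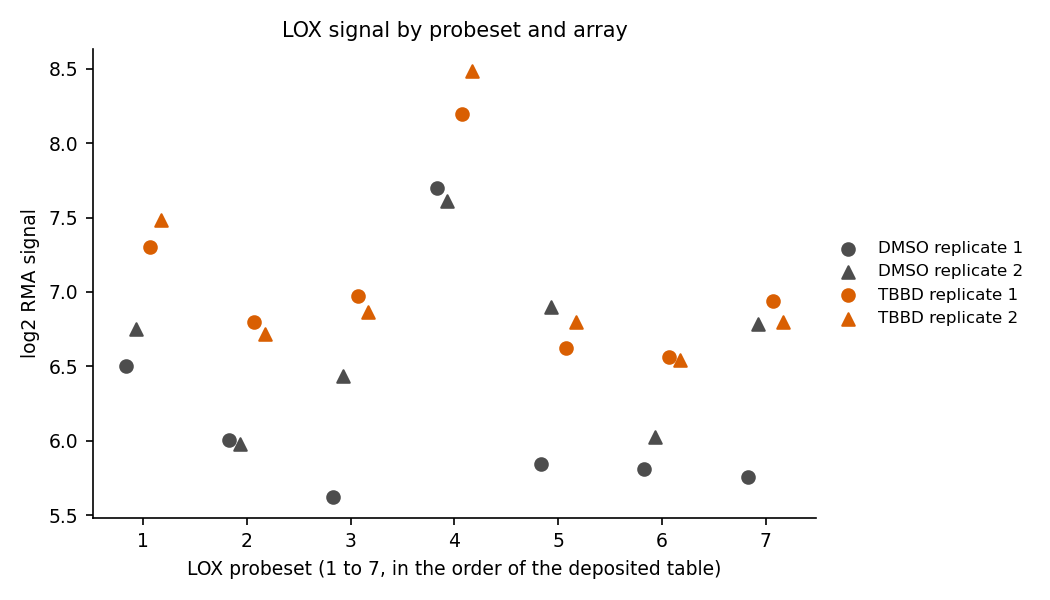
Log2 RMA signal (y axis) of the 7 LOX probesets (x axis, in the order of the deposited table) on each array. Grey is DMSO and orange TBBD, circles replicate 1 and triangles replicate 2. The TBBD points lie above both DMSO points at 6 probesets, as at 13.0% of all named probesets. Among these 6, probeset 7 has TBBD 2 above DMSO 2 by only 0.017. At probeset 5 DMSO 2 (6.90) lies above TBBD 2 (6.80).

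The 250 bases before the start of LOX are shown with those of LOXL1 and LOXL4, because LOX had the largest treatment difference of the 5 members and LOXL1 and LOXL4 the largest differences between replicate numbers, 0.93 and 0.56 on the log2 scale. They come from RefSeq on GRCh38.p14, at chr5:122078260-122078509 on the minus strand for LOX, chr15:73926212-73926461 on the plus strand for LOXL1 and chr10:98268195-98268444 on the minus strand for LOXL4. Capitals mark ACGTG, the core of the hypoxia response element, and GGGCGG, the GC box bound by SP1-type factors, each on either strand (CACGT and CCGCCC). The search was chosen with the array values known. Each sequence runs 5′ to 3′ on the gene's own strand.
LOX: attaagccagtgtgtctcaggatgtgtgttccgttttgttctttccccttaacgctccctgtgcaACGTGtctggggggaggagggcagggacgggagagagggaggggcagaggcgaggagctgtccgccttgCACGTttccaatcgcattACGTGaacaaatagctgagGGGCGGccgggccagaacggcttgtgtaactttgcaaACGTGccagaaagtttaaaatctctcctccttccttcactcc
LOXL1: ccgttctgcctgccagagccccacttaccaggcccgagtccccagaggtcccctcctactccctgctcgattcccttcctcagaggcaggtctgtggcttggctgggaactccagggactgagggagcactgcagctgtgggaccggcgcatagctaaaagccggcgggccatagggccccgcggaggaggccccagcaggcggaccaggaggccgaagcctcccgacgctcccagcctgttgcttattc
LOXL4: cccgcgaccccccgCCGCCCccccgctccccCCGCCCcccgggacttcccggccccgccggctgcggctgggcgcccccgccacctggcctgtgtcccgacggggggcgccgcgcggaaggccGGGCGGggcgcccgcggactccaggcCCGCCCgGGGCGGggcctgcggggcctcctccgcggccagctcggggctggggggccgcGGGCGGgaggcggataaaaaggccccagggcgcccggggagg
The LOX window held 4 matches to ACGTG, beginning 185, 116, 98 and 42 bases before the start, and 1 GC box. Over 35116 such windows in the RefSeq table, 18.5% held at least 1 ACGTG match and 0.669% held at least 4, where a CACGTG would count as 2 overlapping matches. The LOXL1 window held no match to either motif. The LOXL4 window held 6 GC boxes and no ACGTG match. At least 1 GC box was present in 42.6% of windows and at least 6 in 2.22%. The LOX entry is the upstream one of its 3 starts in the table. The other two windows overlap each other and share a single ACGTG match, which begins 68 bases before one start and 117 before the other. Such matches describe the letters of these windows only.

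LOXL1, which cross-links elastin in particular, divided by replicate number instead. Its log2 signal was 7.30 on DMSO 1 and 7.36 on TBBD 1, against 8.12 on DMSO 2 and 8.41 on TBBD 2. Both replicate 2 arrays lay above both replicate 1 arrays, as for 25.1% of all genes, and the treatments overlapped. TBBD minus DMSO was 0.061 in replicate 1 and 0.29 in replicate 2 on the log2 scale. For LOXL1 the mean was 0.18 ± 0.43 (SE, which includes the shift between numbers). Its probesets did not move together with treatment, since 4 of 7 were higher with TBBD in replicate 1, 6 of 7 in replicate 2 and 3 in both, against 23.6% of all named probesets higher in both. The single-probeset log2 differences ran from -0.44 to 0.84 in replicate 1 and from -0.40 to 0.72 in replicate 2. Probeset means over the 4 arrays ran from 5.53 to 9.15.

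LOXL2, which is known for cross-linking collagen IV of basement membranes, differed little between treatments. Its log2 signal was 8.41 (DMSO 1), 8.79 (DMSO 2), 8.61 (TBBD 1) and 8.65 (TBBD 2). Both TBBD arrays lay between the DMSO arrays, and both replicate 2 arrays lay above both replicate 1 arrays, as for 25.1% of all genes. TBBD minus DMSO was 0.20 in replicate 1 and -0.14 in replicate 2 on the log2 scale, with a mean of 0.027 ± 0.16 (SE). Of its 18 probesets 15 were higher with TBBD in replicate 1 but only 7 in replicate 2, and 6 in both. The shares of all named probesets were 48.5%, 50.5% and 23.6% in the same order. With the median over probesets its mean log2 difference was 0.15.

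LOXL3, a member needed for the palate and spine in mouse development, had the smallest range over the arrays of the 5 members. Its log2 signal was 6.20 (DMSO 1), 6.30 (DMSO 2), 6.12 (TBBD 1) and 6.30 (TBBD 2). Both replicate 2 arrays lay above both replicate 1 arrays, so that 4 of the 5 members did, all but LOX, against 25.1% of all genes. The gap was small for LOXL3, and for LOXL2 it lay only between 8.61 (TBBD 1) and 8.65 (TBBD 2). The treatments overlapped, and TBBD minus DMSO was -0.077 in replicate 1 and -0.00056 in replicate 2 on the log2 scale. The gene means averaged over opposite differences of single probesets in replicate 2, which ran from -1.16 to 1.15. The probeset with the highest of these read 6.43 (DMSO 1), 6.14 (DMSO 2), 6.13 (TBBD 1) and 7.29 (TBBD 2). The probeset with the lowest read 4.85, 4.43, 4.87 and 3.26 in the same order, below the olfactory receptor median level on every array. Of the 16 probesets 13 lay above that level, and over these 13 alone the mean log2 difference was 0.056 instead of -0.039.

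LOXL4, which like LOXL2 and LOXL3 carries scavenger receptor domains, also divided by replicate number. Its log2 signal was 5.78 on DMSO 1 and 5.92 on TBBD 1, against 6.40 on DMSO 2 and 6.42 on TBBD 2. The replicate numbers did not overlap, with replicate 2 higher as for 25.1% of all genes, and the treatments did overlap. TBBD minus DMSO was 0.13 in replicate 1 and 0.024 in replicate 2 on the log2 scale. For LOXL4 the mean was 0.079 ± 0.27 (SE, which includes the shift between numbers). Of its 16 probesets 7 were higher with TBBD in both numbers, where 23.6% of all named probesets were, and 4 were lower in both. The probeset means ran from 5.13 to 7.87, and 14 of 16 lay above the olfactory receptor median level. With the median over probesets its mean treatment difference was -0.015.

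**Figure D3:**
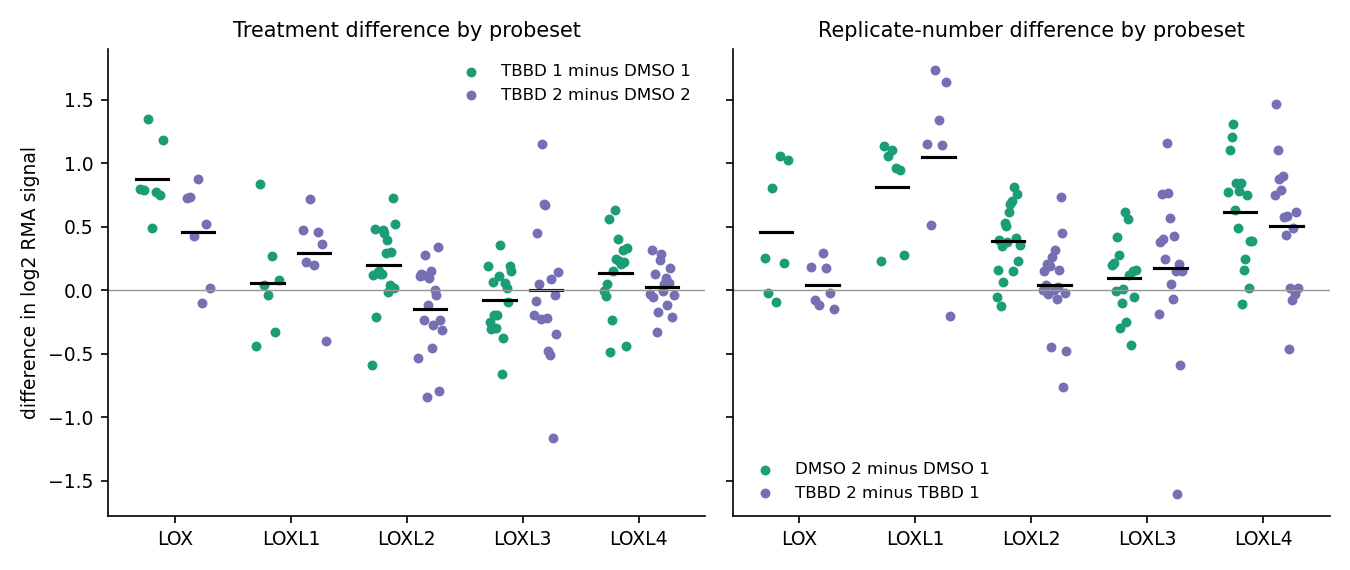
Differences in log2 RMA signal (y axis) for every probeset of each member (x axis), as TBBD minus DMSO within replicate 1 (green) and replicate 2 (purple) on the left, and as replicate 2 minus replicate 1 within DMSO (green) and within TBBD (purple) on the right. Black bars are gene means. LOX stands above 0 on the left in both numbers (0.88 and 0.46), and all 5 gene means stand above 0 on the right in both treatments, from 0.10 (LOXL3) to 0.82 (LOXL1) within DMSO and from 0.042 (LOXL2) to 1.05 (LOXL1) within TBBD.

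The 2 arrays numbered 2 were then compared with the 2 numbered 1, with treatment as a term in limma. This contrast does not enter the rule that chose the family, although a shift of mesenchyme and matrix markers between the numbers was already known. The labels do not say what a number marks. With treatment as a term, the spread left for a gene is how far its shift differs between DMSO and TBBD. The p-values and intervals of this contrast therefore do not measure the spread between separate cultures or runs. Over all genes 653 passed at an adjusted p under 0.05, or 3.5%, with 2.3% higher and 1.21% lower in replicate 2. LOXL1 was higher in replicate 2 by 0.93 ± 0.12 (SE) on the log2 scale, or 1.91-fold, with a 95% confidence interval from 0.64 to 1.22, and passed (limma adjusted p = 0.0123). It was higher by 0.82 within DMSO and by 1.05 within TBBD, and at 6 of its 7 probesets both replicate 2 arrays lay above both replicate 1 arrays, as at 21.2% of all named probesets. LOXL4 was higher by 0.56 ± 0.12 (SE), with an interval from 0.29 to 0.84, and did not pass (limma adjusted p = 0.0521). With the median over probesets its difference was 0.79 and passed (limma adjusted p = 0.0267), and over the 5 alternatives its adjusted p ran from 0.0267 to 0.0733. At 12 of its 16 probesets both replicate 2 arrays lay above both replicate 1 arrays. LOX differed by 0.25, with an interval from -0.076 to 0.58 (limma adjusted p = 0.410), LOXL2 by 0.21, from -0.097 to 0.52 (limma adjusted p = 0.464), and LOXL3 by 0.14, from -0.13 to 0.41 (limma adjusted p = 0.616). Whether the shift of LOXL1 differs from that of LOX was not tested. LOX itself was higher in replicate 2 by 0.46 within DMSO and by only 0.043 within TBBD.

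Markers of other cell types moved with the number as well. Over all genes 2.3% passed as higher in replicate 2 and 1.21% as lower. Of the 11 measured mesenchyme markers 5 passed as higher and none as lower. The list's mean log2 signal was 7.78 on DMSO 1, 7.77 on TBBD 1, 8.43 on DMSO 2 and 8.61 on TBBD 2. The proteoglycan gene DCN was the farthest, at 3.21 ± 0.20 (SE). Of 8 hepatic and visceral endoderm markers 5 passed as higher, with list means of 5.63, 5.77, 6.99 and 7.24 in the same order, and of 6 endothelial markers 5 passed as higher, with list means of 6.31, 6.30, 7.12 and 7.51. Of 7 pluripotency markers 3 passed as lower and 1, SOX2, as higher. Of 5 trophoblast markers 1 passed as higher, the hormone subunit gene CGA. Only 2 of these 5 were higher at all, and the list median was -0.54 on the log2 scale. Of 5 neural markers none passed, with 1 at an unadjusted p under 0.05 in limma, where 18.2% of all genes were. The part of these cell types in the shift of LOXL1 was not tested. For the treatment difference of LOX, 4 of 11 mesenchyme markers were higher with TBBD in replicate 1, where LOX differed most, and 10 of 11 in replicate 2. The shares of all genes higher with TBBD were 45.2% in replicate 1 and 53.2% in replicate 2. The liver and visceral endoderm list had 6 of 8 genes higher with TBBD in replicate 1 and 7 of 8 in replicate 2, and the endothelial list 2 of 6 and 6 of 6. Of the trophoblast markers 4 of 5 were higher in replicate 1, with a median log2 difference of 0.59, and 3 of 5 in replicate 2, with 0.014. Of the pluripotency markers 5 of 7 were lower in replicate 1 and 6 of 7 in replicate 2, and of the neural markers 2 of 5 and 3 of 5 were higher. The part of these lists in the LOX difference was not tested either.

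The substrates of the enzymes shifted with number in the same direction as LOXL1. Of 13 collagen and elastin genes 9 passed as higher in replicate 2 and none as lower in limma, with a median of 0.92 on the log2 scale, where the median over all genes was -0.0024. COL3A1, the fibrillar collagen of distensible tissue, was higher by 2.16 ± 0.13 (SE), COL1A1, a chain of the main fibrillar collagen, by 1.66 ± 0.12, and COL6A3, of microfibrillar collagen, by 1.73 ± 0.12. ELN, the elastin gene, stood at -0.27 ± 0.11 and did not pass. With treatment, 9 of the 13 were higher with TBBD in both numbers, where 21.5% of all genes were. The list median was 0.10 on the log2 scale against -0.0035 over all genes, and limma called none of the 13 (background 0%), with 0 at an unadjusted p under 0.05. COL4A1 differed by 0.27 ± 0.24 (SE) and COL6A3 by 0.29 ± 0.78. These SEs come from the fit with group alone, so they include the shift between numbers. Within replicates 1 and 2, COL4A1 differed by 0.10 and 0.44 and COL6A3 by 0.41 and 0.18. The list median was -0.51 without DMSO 1 and -0.51 without TBBD 2, against 0.49 without DMSO 2 and 0.56 without TBBD 1, which leave the numbers unequal.

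**Figure D4:**
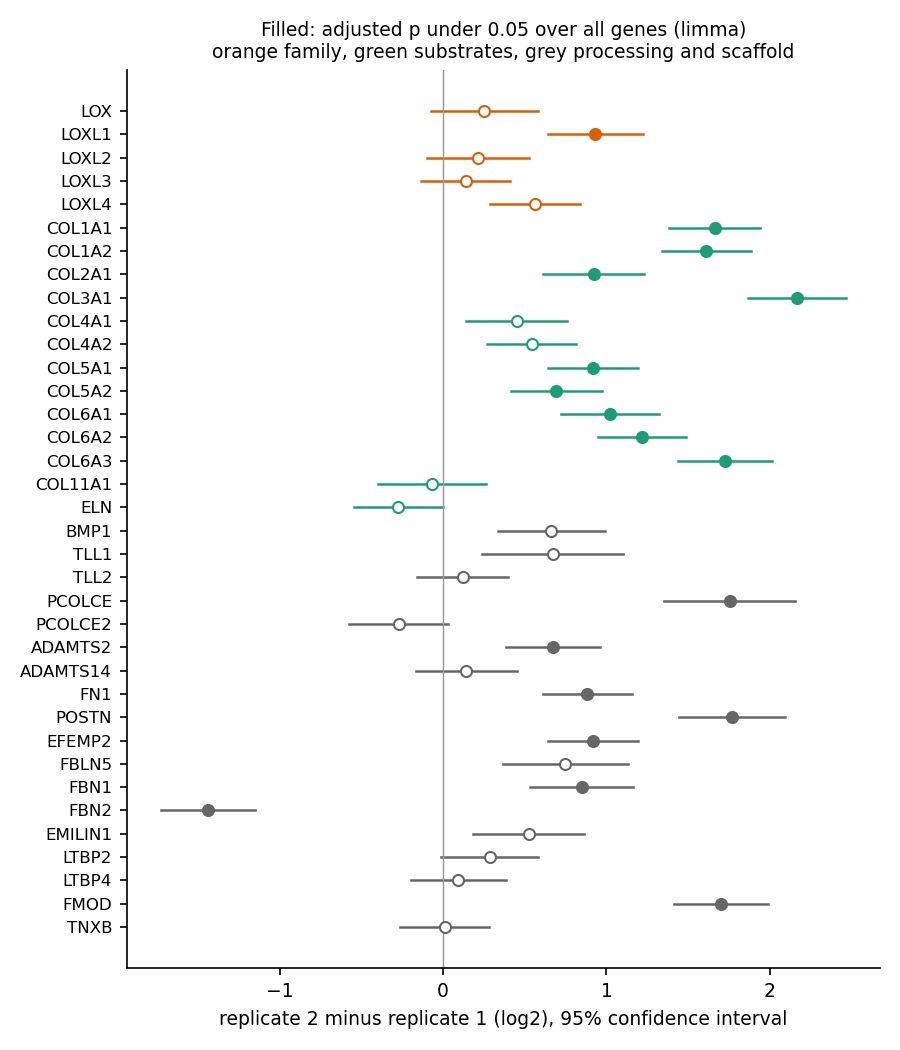
Replicate 2 minus replicate 1 in log2 signal (x axis) with the 95% confidence interval of limma, for the family (orange), its collagen and elastin substrates (green) and its processing and scaffold proteins (grey). Filled points have an adjusted p under 0.05 over all genes. LOXL1 is filled at 0.93, LOXL4 is open at 0.56, and 9 of 13 substrates are filled to the right of 0.

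Of 18 genes for processing and scaffold proteins of the lysyl oxidases, 7 passed as higher in replicate 2 and 1 as lower, against 2.3% and 1.21% of all genes, and 10 did not pass. PCOLCE, which enhances procollagen cleavage by BMP1, was higher by 1.75 ± 0.17 (SE) on the log2 scale, and POSTN, encoding periostin, which ties BMP1 to the matrix, by 1.77 ± 0.14. EFEMP2, which encodes fibulin-4 and brings LOX to elastic fibres, was higher by 0.92 ± 0.12, whereas the fetal fibrillin gene FBN2 was lower, at -1.44 ± 0.12. BMP1, the proteinase that activates LOX, stood at 0.66 ± 0.14 and did not pass (limma adjusted p = 0.0545). With treatment 4 of the 18 were higher in both numbers and 1 lower in both, against 21.5% and 23.0% of all genes, with a median log2 difference of 0.054. BMP1 differed by -0.18 in replicate 1 and 0.24 in replicate 2.

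Enzymes that hydroxylate collagen, and its chaperones, passed for number in both directions. Of 17 genes 2 passed as higher in replicate 2, the lysyl hydroxylase gene PLOD1 at 0.65 ± 0.11 (SE) and the peptidyl-prolyl isomerase gene FKBP10 at 0.74 ± 0.12, and 1 as lower, the prolyl 3-hydroxylase gene P3H2 at -0.91 ± 0.12, where 2.3% and 1.21% of all genes passed. With treatment 5 of 17 were higher in both numbers, where 21.5% of all genes were, and 3 lower in both, where 23.0% were, and the median log2 difference was 0.024. The prolyl 4-hydroxylase gene P4HA1 read 8.26 (DMSO 1), 9.01 (DMSO 2), 8.98 (TBBD 1) and 8.79 (TBBD 2). It differed by 0.72 in replicate 1 and by -0.22 in replicate 2, P4HA2 by 0.59 and -0.12, and PLOD2, whose product hydroxylates collagen telopeptides, by 0.33 and -0.0030. These 3 genes are themselves known hypoxia targets.

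A separate list of hypoxia targets also lay on opposite sides of 0 in the 2 numbers. Of 12 genes 11 were higher with TBBD in replicate 1, as were 45.2% of all genes, with a median log2 difference of 0.26, and 10 of 12 were lower in replicate 2, with a median of -0.25, where 53.2% of all genes were higher. NDRG1, a stress-induced gene, read 7.75 (DMSO 1), 8.69 (DMSO 2), 8.77 (TBBD 1) and 8.45 (TBBD 2), so that DMSO 1 stood apart as the lowest. VEGFA, the angiogenic growth factor, read 7.58, 8.83, 8.32 and 8.57 in the same order, and BNIP3, a mitophagy receptor, 9.62, 10.17, 10.22 and 9.81. In replicate 2, where NDRG1 differed by -0.24, VEGFA by -0.26 and BNIP3 by -0.36, LOX differed by 0.46. The part of this list in the larger LOX value of replicate 1 was not tested. In limma none of the 12 passed for treatment or for number, and 0 and 3 had an unadjusted p under 0.05, where 0.746% and 18.2% of all genes did. Over both numbers the list median was 0.040, and it was -0.12 without DMSO 1.

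**Figure D5:**
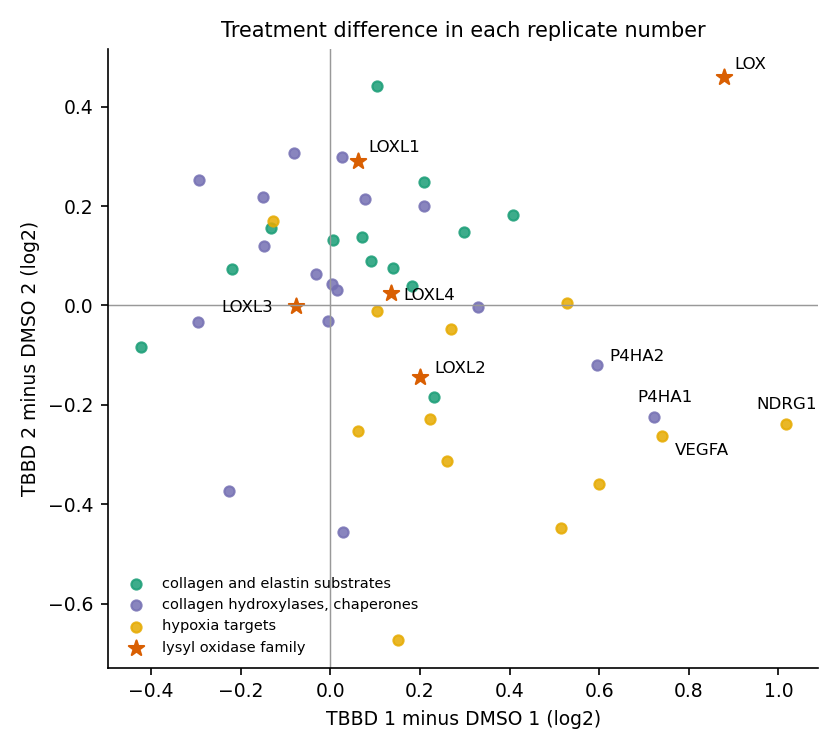
TBBD minus DMSO in log2 signal in replicate 1 (x axis) against replicate 2 (y axis) for the family (stars), collagen and elastin substrates (green), collagen hydroxylases and chaperones (purple) and hypoxia targets (yellow). LOX lies at 0.88 and 0.46, while NDRG1, VEGFA, P4HA1 and P4HA2 lie right of 0 and below 0.

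Upstream regulators and copper supply genes differed with treatment in either direction. Of 16 regulators 5 were higher with TBBD in both numbers and 3 lower in both, where 21.5% and 23.0% of all genes were, with a median log2 difference of 0.060. HIF1A, the oxygen-regulated transcription factor, differed by -0.13 in replicate 1 and 0.074 in replicate 2, its relative EPAS1 by 0.30 and 0.22, the growth factor gene TGFB1 by 0.26 and -0.018, and SNAI1, encoding a repressor that LOXL2 is known to bind, by -0.65 and 0.079. With number, 1 of the 16 passed, where 3.5% of all genes did. It was EPAS1, higher in replicate 2 by 1.19 ± 0.12 (SE). Of 8 genes listed for copper supply 1 was higher with TBBD in both numbers and 2 lower in both, against the same shares of all genes. The list includes SLC33A1, which is not a copper transporter or chaperone. ATP7A, the pump that loads copper onto lysyl oxidases in the secretory pathway, differed by -0.044 and 0.099, and the importer SLC31A1 by -0.11 and -0.28. With number, 1 of the 8 passed against 3.5% of all genes, the copper pump gene ATP7B, higher in replicate 2 by 0.84 ± 0.12 (SE). In limma no gene of either list passed for treatment, and 0 of the regulators and 0 of the copper genes had an unadjusted p under 0.05.

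The genes with the most similar profiles differed from member to member. Similarity was the Euclidean distance between log2 profiles over the 4 arrays, each centred on its own mean, among genes with at least 3 probesets. The 5 nearest to LOX were ZNF436-AS1 at 0.18, TMEM37 at 0.28, AVP at 0.29, CYGB at 0.29 and ASMT at 0.30, and their ranks carry no test. ZNF436-AS1 read 4.86 (DMSO 1), 5.31 (DMSO 2), 5.76 (TBBD 1) and 5.58 (TBBD 2), close to the olfactory receptor median level of 5.40. CYGB, the cytoglobin gene, read 6.51, 7.12, 7.13 and 7.44 in the same order. The 3 nearest to LOXL1 were GLT8D2 at 0.046, EFEMP2 at 0.061 and MPPED2 at 0.064. EFEMP2 read 6.83 (DMSO 1), 7.67 (DMSO 2), 6.97 (TBBD 1) and 7.96 (TBBD 2). For LOXL4 the nearest were AMOT at 0.039, ZBTB20 at 0.047 and KCNMA1 at 0.049. For LOXL2 they were CPT1C at 0.017, DGKD at 0.022 and the copper chaperone gene CCS at 0.022, and for LOXL3 SLC24A5 at 0.0066, C2orf66 at 0.0091 and TRABD at 0.012. Flat profiles such as that of LOXL3 have near neighbours by construction, and 4 arrays allow many genes to share a shape.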

How the data were processed

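RNA of 4 samples was measured on Affymetrix arrays. The deposited values are log2 signals per probeset that the authors made with RMA, per the submitters' processing notes. The RMA version was not given in the sources used here. Of 247312 probesets, 277 held a placeholder value in at least 1 cell and were left out. The 218927 probesets with 1 gene symbol were averaged per gene and array. Of 18683 symbols, 2528 were updated through a RefSeq table of GRCh38.p14 and 99 were kept as given. Groups and numbers came from sample titles. Limma 3.58.1 in R 4.3.3, two-sided with Benjamini-Hochberg adjustment over 18640 genes, was fitted with group alone and, for replicate number, with treatment as a term, and was tested on simulated data. An exact permutation of 2 against 2 arrays cannot go below p = 0.333. The members, gene lists, naming rule (all members, listed genes by count and best-known examples, nearest profiles) and motifs were chosen with earlier results of these data known, and no detection call was used. Figures used Python 3.11.15 and matplotlib 3.10.9. Alternatives were other normalizations, dim genes or probesets left out, medians over probesets, another prior, the replicate number as a block, and each array left out.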

Additional observations from a re-analysis of the deposited data

How the results depend on the processing

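LOX was higher with TBBD under every alternative tried, though several of these could not have given another direction. Both TBBD arrays lay above both DMSO arrays, so leaving out 1 array could not reverse the difference. All 7 LOX probesets lay above the olfactory receptor median level in their means over the 4 arrays, so leaving out dim probesets changed nothing. The 95th percentile of the olfactory receptor genes was 5.66. On DMSO 1, LOX probesets 3 and 7 read 5.63 and 5.76, near that level, and these 2 had the largest differences in replicate 1, 1.35 and 1.18. Its log2 difference was 0.68 with quantile normalization again, 0.68 with median centring and 0.57 with the median over probesets, and between 0.44 and 0.90 with 1 array left out. With an array left out, which leaves the numbers unequal, LOXL1 ran from -0.35 to 0.70 and LOXL2 from -0.17 to 0.22. LOXL3 ran from -0.13 to 0.050 and LOXL4 from -0.23 to 0.39, so each of these 4 changed sign. Within replicates 1 and 2, TBBD minus DMSO kept its sign for LOXL1 (0.061 and 0.29), LOXL3 (-0.077 and -0.00056) and LOXL4 (0.13 and 0.024). It changed sign for LOXL2 (0.20 and -0.14). Limma called 0 genes for treatment in all alternatives, with 23 to 496 at an unadjusted p under 0.05. With the replicate number as a block, 0 genes passed and 496 had an unadjusted p under 0.05. In this balanced layout a block cannot change the LOX difference of 0.67. The deviations of same-numbered arrays correlated at 0.566 across genes, which 2 pairs cannot settle as a pairing. For replicate number, the 653 genes became 1001 with number as the only term, where LOXL4 also passed (limma adjusted p = 0.0270). LOXL4 also passed over its probesets above the olfactory level (limma adjusted p = 0.0429). LOXL1 passed in every alternative (limma adjusted p from 0.00897 to 0.0221). Leaving out 1 array leaves no residual degrees of freedom for this contrast. With 2 arrays a group, precision is limited by their number.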
